A study of Mus musculus with 12 samples.

Results

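The 10 genes described here encode the core of the circadian clock and were chosen by symbol: Arntl (also called Bmal1), Clock, Per1, Per2, Per3, Cry1, Cry2, Nr1d1, Nr1d2 and Dbp. All 10 were found among the 19938 genes measured, each through 1 transcript cluster, a set of array probes for 1 transcript. Transcript levels were measured on 12 whole-transcript arrays of NIH3T3 cells, an established mouse fibroblast line, sorted for G1, the stage of the cell cycle before DNA synthesis. The groups were untreated cells (n = 3) and cells kept in 1 mM difluoromethylornithine (DFMO) for 12 h (n = 2), 24 h (n = 3), 48 h (n = 2) and 96 h (n = 2). DFMO blocks ornithine decarboxylase, the first enzyme of polyamine synthesis, and so depletes cells of polyamines. All groups were of the same line, and the drug was added 24 h after seeding. The series text places the untreated cells at 0 h, so time in culture and exposure to DFMO cannot be told apart. No step to synchronise the clocks of the cells is named in the labels.

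The mammalian clock is a feedback loop of transcription. CLOCK and ARNTL form a dimer that binds E-box sequences and switches on the Per, Cry, Nr1d1, Nr1d2 and Dbp genes. PER and CRY proteins then return to the nucleus and inhibit that dimer, while the receptors NR1D1 and NR1D2 (REV-ERB alpha and beta) repress Arntl through ROR elements, and DBP activates genes through D-boxes. Fibroblasts in culture, NIH3T3 among them, carry such clocks, and polyamines are known to influence the period of the clock in mouse cells. The untreated, 24, 48 and 96 h cells were collected at whole multiples of 24 h, and only the 12 h cells lie between them, so the phase of a rhythm cannot be read from these times.

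Values are log2 levels, so a difference of 1 is a doubling. Array medians lay between 4.126 and 4.202, and the r between replicates was 0.994 to 0.998. Fibroblast markers (10 of 10 measured) had a median level of 10.1 in untreated cells, although Fap, a fibroblast protease chosen for naming because it was the lowest, stood at 3.44. Leukocyte markers (9 of 10 measured) had a median of 3.84, and epithelial and endothelial markers (10 of 10) one of 3.45. Untreated replicate 3, 12 h replicate 2 and 24 h replicate 3 deviated from their group means in the same direction, with r of 0.209 to 0.581 across genes, so counts that change without all 3 are given as well.

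Levels of 5 clock genes rose after 96 h of DFMO and none fell. Nr1d1 and Dbp rose by more than 3-fold, Nr1d2, Per3 and Cry2 rose by less, and Per1 was higher on both arrays without passing the test. Arntl, Clock, Per2 and Cry1 did not pass either, though both 96 h arrays of Arntl and of Clock also lay above the untreated ones. At 12, 24 and 48 h no clock gene passed. The test was limma's moderated test across all 19938 genes, called at a Benjamini and Hochberg adjusted p under 0.05. At 96 h it called 11.8% of all genes higher and 10.1% lower, against 5 and 0 of the 10 clock genes. Without the 3 arrays that deviated together 6 were called higher, Arntl being added, and without 96 h replicate 2 the calls were Nr1d1, Nr1d2 and Dbp. The median log2 change of the 10 was 0.65, and that of all genes was 0.00035. In bulk samples, more cells that express a gene and more RNA of it per cell cannot be told apart.

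**Figure D1:**
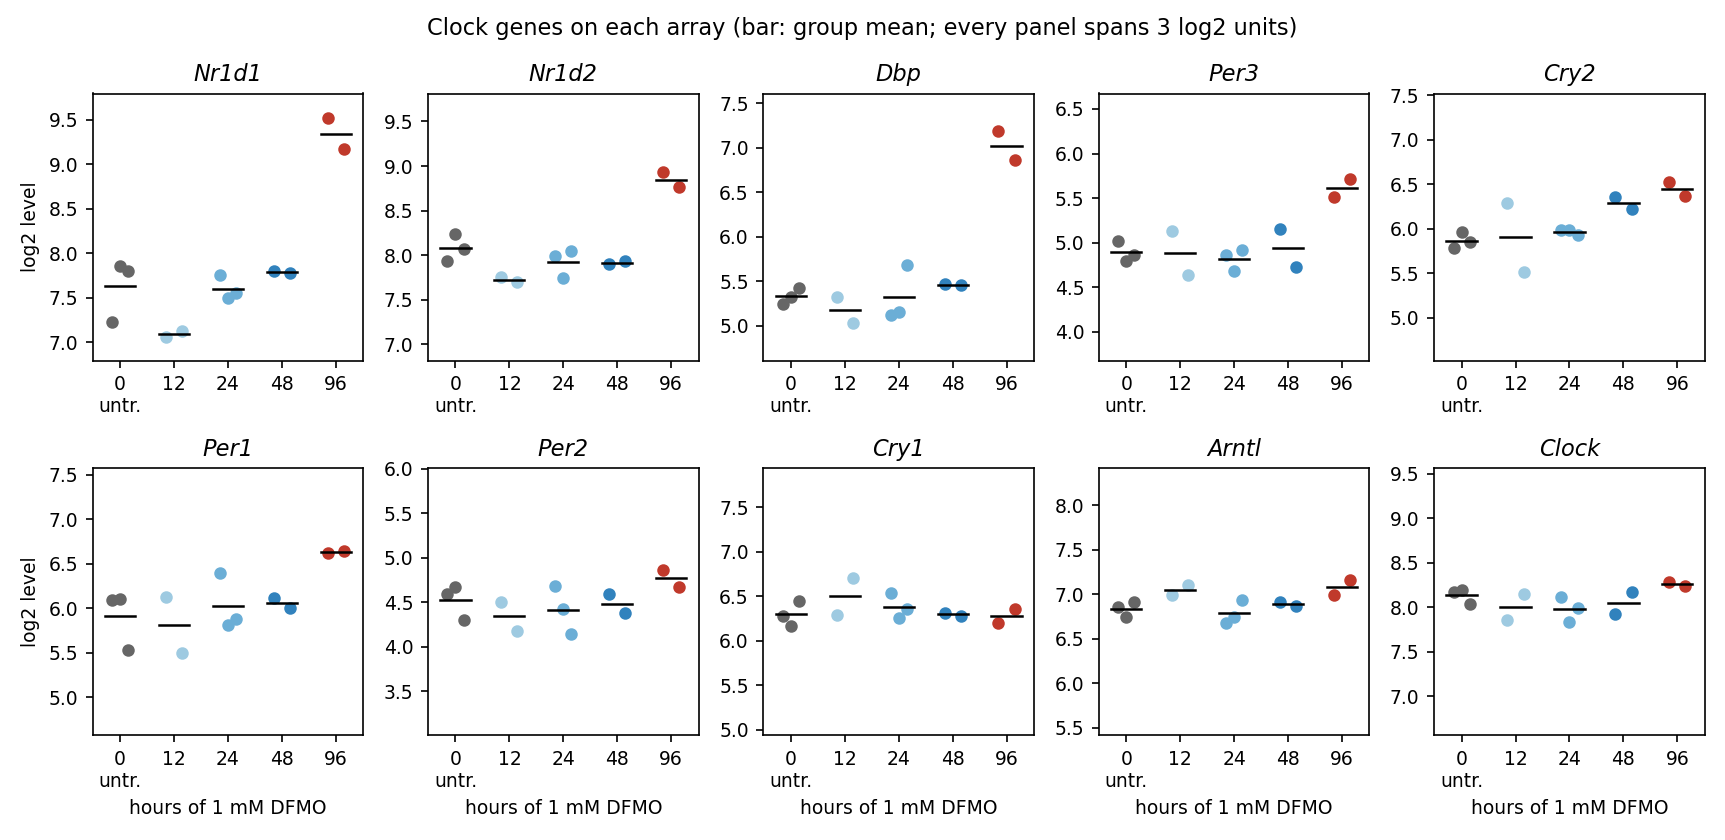
Log2 level (vertical axis, every panel spanning 3 units) of each clock gene on each of the 12 arrays by hours of 1 mM DFMO (horizontal axis), with 0 for untreated cells. Points are arrays and bars are group means. The 96 h points of Nr1d1, Nr1d2, Dbp, Per3, Cry2, Per1 and Clock lie above all other points of their panels.

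Nr1d1 (transcript cluster 10390691) encodes REV-ERB alpha, a heme-binding nuclear receptor that represses Arntl. Its log2 level was 7.23, 7.85 and 7.80 in untreated cells, 7.06 and 7.13 after 12 h, 7.76, 7.49 and 7.55 after 24 h, 7.80 and 7.77 after 48 h, and 9.52 and 9.16 after 96 h. Both 96 h arrays lay above all others by more than 1 log2 unit, and both 12 h arrays below all others. The change at 96 h was 1.71 ± 0.18 (SE, 3.28-fold, limma adjusted p = 0.000119, n = 2 against 3), and 99.6% of all genes had a lower or equal change. Against 48 h it was 1.56 ± 0.20 (2.94-fold, limma adjusted p = 0.00122, n = 2 each). Nr1d1 overlaps the end of Thra, a thyroid hormone receptor gene, in GRCm38.p6. Thra had 8.18 and 8.26 at 96 h, against 8.02, 7.76 and 7.53 in untreated cells, and its change of 0.45 ± 0.36 did not pass (limma adjusted p = 0.51, n = 2 against 3).

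Nr1d2 (10417734) encodes REV-ERB beta, the close relative of Nr1d1. Its level was 7.93, 8.23 and 8.07 in untreated cells, 7.75 and 7.69 after 12 h, 7.99, 7.74 and 8.04 after 24 h, 7.90 and 7.93 after 48 h, and 8.93 and 8.76 after 96 h. The 96 h arrays again stood above every other array. The change at 96 h was 0.77 ± 0.11 (1.70-fold, limma adjusted p = 0.000694, n = 2 against 3). Against 48 h Nr1d2 rose by 0.93 ± 0.12 (limma adjusted p = 0.00127, n = 2 each).

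Dbp (10553092) encodes a bZIP transcription factor of the PAR family and is a direct output of the CLOCK and ARNTL dimer. Its level was 5.24, 5.32 and 5.42 in untreated cells, 5.32 and 5.03 after 12 h, 5.13, 5.16 and 5.68 after 24 h, 5.47 and 5.46 after 48 h, and 7.18 and 6.86 after 96 h. Up to 48 h all arrays lay between 5.03 and 5.68, and both 96 h arrays lay more than 1 log2 unit above that range. The change at 96 h was 1.69 ± 0.17 (3.23-fold, limma adjusted p = 8.91e-05, n = 2 against 3), and against 48 h it was 1.56 ± 0.18 (limma adjusted p = 0.000847, n = 2 each). Nr1d1, Nr1d2 and Dbp were the 3 clock genes called between 48 and 96 h, all higher and 0 lower, in a step that called 8.64% of all genes, 4.35% higher and 4.29% lower. Both comparisons use the same 96 h arrays.

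**Figure D2:**
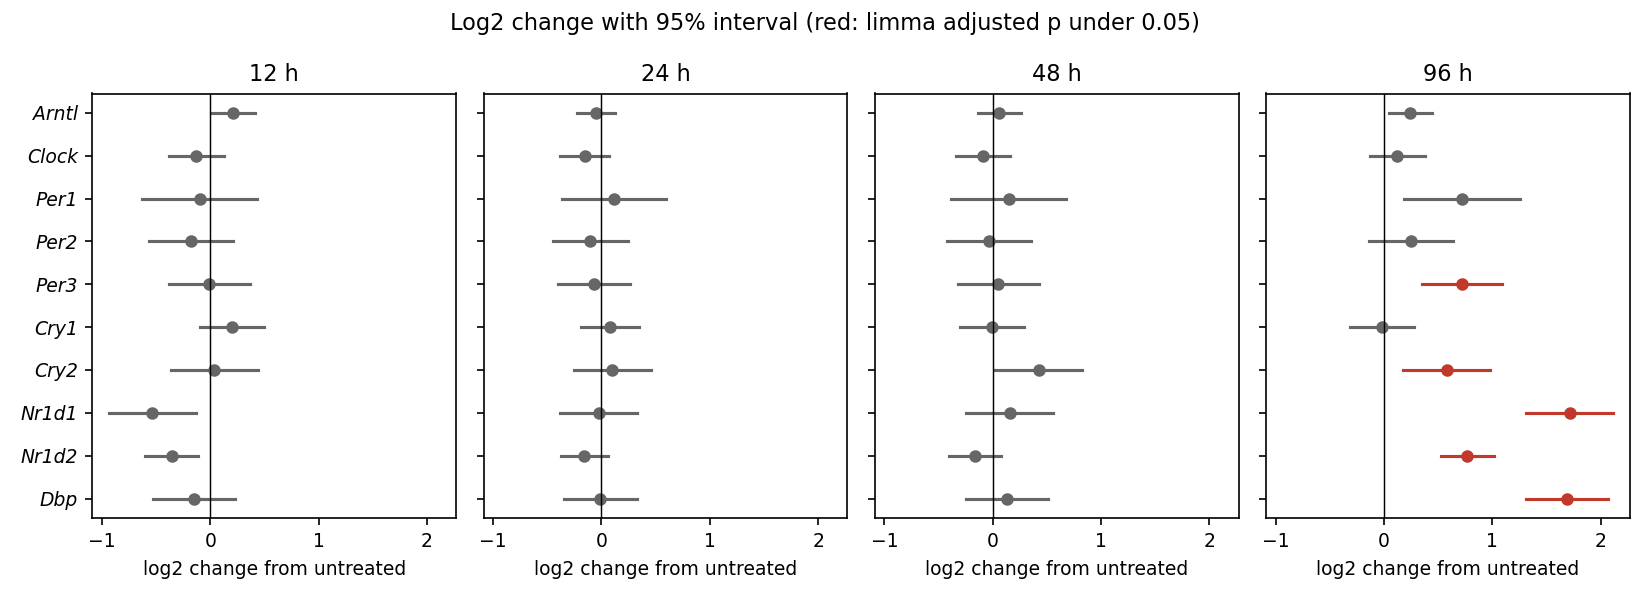
Log2 change from untreated cells (horizontal axis) of each clock gene at 12, 24, 48 and 96 h, with the point for the estimate and the line for its 95% interval from limma. Red marks the 5 genes past the adjusted threshold, all at 96 h. Among intervals without a call, those of Nr1d1 and Nr1d2 at 12 h lie below 0. Those of Arntl at 12 h, Cry2 at 48 h, and Per1 and Arntl at 96 h lie above 0. The intervals are not adjusted for the number of genes.

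The Per genes encode the PERIOD proteins, which carry the repressing complex. Per3 (10518781) had 5.02, 4.79 and 4.86 in untreated cells, 5.13 and 4.64 after 12 h, 4.86, 4.68 and 4.92 after 24 h, 5.16 and 4.73 after 48 h, and 5.51 and 5.71 after 96 h. It rose by 0.72 ± 0.17 at 96 h (1.65-fold, limma adjusted p = 0.0111, n = 2 against 3), and the groups did not overlap. Without 96 h replicate 2 the change was 0.62 and the call was lost (limma adjusted p = 0.0992).

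Per1 (10377439) had 6.10, 6.11 and 5.54 in untreated cells, 6.13 and 5.504 after 12 h, 6.39, 5.81 and 5.89 after 24 h, 6.12 and 6.001 after 48 h, and 6.62 and 6.65 after 96 h. Both 96 h arrays were above all others, while 12 h replicate 2 and untreated replicate 3 were the lowest of the 12. The 96 h change was 0.72 ± 0.24, almost that of Per3, but the spread was wider and the call was missed (limma adjusted p = 0.0591, 95% interval 0.19 to 1.25, n = 2 against 3). It passed in 7 of 22 alternative settings, among them the omission of either 12 h array or of 24 h replicate 1. The limma adjusted p was lowest with the less expressed genes left out (0.0197) and highest without 96 h replicate 2 (0.211).

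Per2 (10356601) had 4.59, 4.68 and 4.30 in untreated cells, 4.50 and 4.18 after 12 h, 4.68, 4.43 and 4.15 after 24 h, 4.60 and 4.38 after 48 h, and 4.87 and 4.67 after 96 h. Its 96 h arrays overlapped the untreated and 24 h arrays and lay above those of 12 and 48 h. The 96 h change of 0.25 ± 0.17 did not pass (limma adjusted p = 0.421, 95% interval -0.14 to 0.64, n = 2 against 3). Nor did the step from 48 h to 96 h, 0.28 ± 0.19 (limma adjusted p = 0.449, n = 2 each). Per2 was the lowest clock gene signal, and 1 of the 9 leukocyte markers had a higher mean over all arrays.

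The cryptochromes, the partners of PER and the strongest repressors of the dimer, differed in their values. Cry2 (10485170) had 5.78, 5.97 and 5.85 in untreated cells, 6.29 and 5.52 after 12 h, 5.98, 5.99 and 5.93 after 24 h, 6.35 and 6.23 after 48 h, and 6.52 and 6.37 after 96 h. The 48 h arrays lay above all 24 h arrays, and the 96 h arrays above both 48 h arrays. The 24 h arrays overlapped the untreated ones, and the 12 h arrays lay on either side of all untreated and 24 h arrays. Cry2 was higher by 0.42 ± 0.18 at 48 h without passing (limma adjusted p = 0.226, n = 2 against 3) and rose by 0.58 ± 0.18 at 96 h (1.49-fold, limma adjusted p = 0.0446, n = 2 against 3). The step between those times, 0.15 ± 0.20, did not pass (limma adjusted p = 0.729, n = 2 each). The 12 h arrays had the widest spread of any group (SD 0.55, against 0.03 to 0.11 in the others), and the fit shares 1 spread over all groups. With only the untreated and 96 h arrays in the fit, the 96 h change had a limma adjusted p of 0.00563 (n = 2 against 3). The 96 h call was the weakest of the 5 and was lost in 12 of 22 alternative settings. Among these were the omission of any single untreated, 24 h, 48 h or 96 h array, over which the change stayed between 0.50 and 0.66.

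Cry1 (10371400) had 6.28, 6.17 and 6.45 in untreated cells, 6.29 and 6.71 after 12 h, 6.54, 6.25 and 6.35 after 24 h, 6.31 and 6.28 after 48 h, and 6.20 and 6.36 after 96 h. Its groups overlapped throughout, and the 96 h change was -0.02 ± 0.13 (limma adjusted p = 0.962, 95% interval -0.31 to 0.28, n = 2 against 3). Whether its change differed from that of Cry2 was not tested.

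Arntl (10556463) and Clock (10530733) encode the activating dimer. Arntl had 6.86, 6.74 and 6.91 in untreated cells, 6.99 and 7.11 after 12 h, 6.67, 6.75 and 6.93 after 24 h, 6.92 and 6.87 after 48 h, and 6.997 and 7.16 after 96 h. The 96 h arrays lay above the untreated ones, by 0.24 ± 0.09 on average, and the test was not passed (limma adjusted p = 0.0853, n = 2 against 3). Clock had 8.17, 8.20 and 8.04 in untreated cells, 7.86 and 8.15 after 12 h, 8.11, 7.84 and 7.995 after 24 h, 7.92 and 8.17 after 48 h, and 8.28 and 8.23 after 96 h. Both 96 h arrays lay above all others, by a small margin. Its 96 h change was 0.13 ± 0.11 (limma adjusted p = 0.566, 95% interval -0.13 to 0.38, n = 2 against 3).

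**Figure D3:**
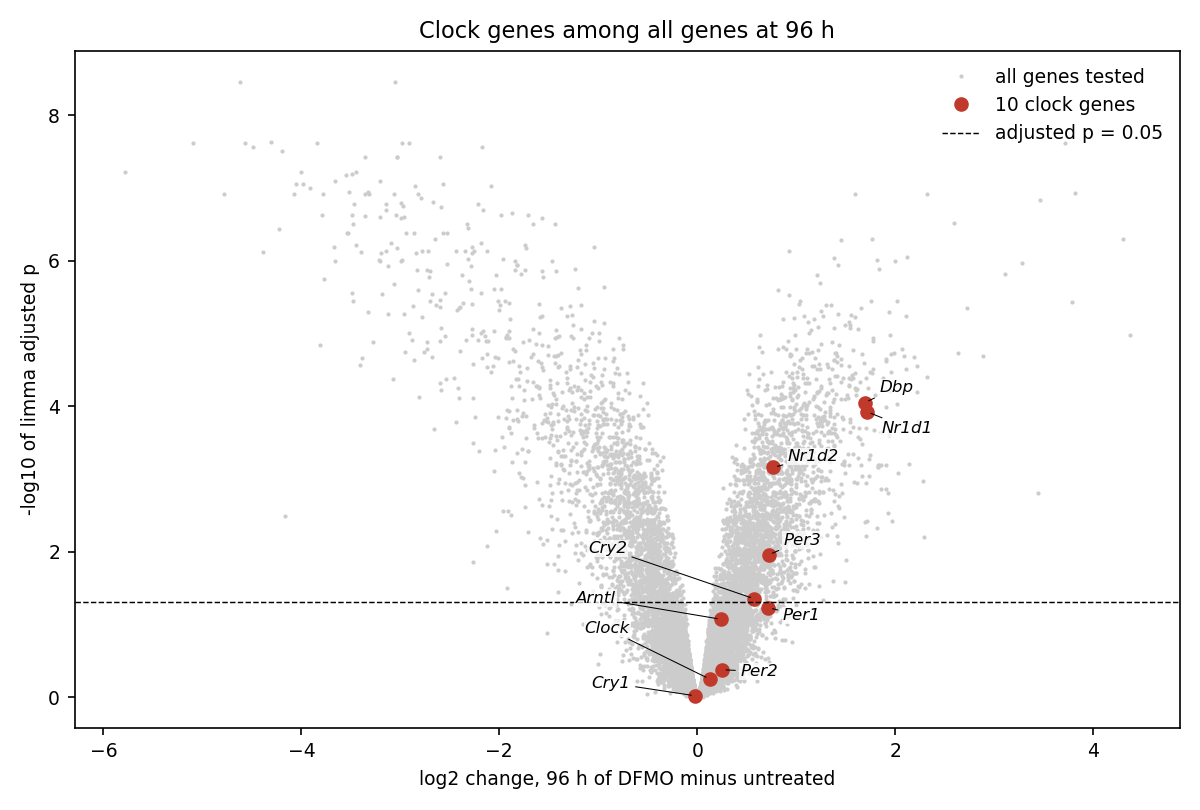
Log2 change at 96 h against untreated cells (horizontal axis) and -log10 of the limma adjusted p (vertical axis) for all 19938 genes in grey and the 10 clock genes in red. Dbp, Nr1d1, Nr1d2, Per3 and Cry2 lie above the dashed line at adjusted p = 0.05, to the right of 0, and Per1 lies just under it.

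At 12 h, the time away from whole days, the REV-ERB genes and Arntl had values on opposite sides of untreated cells, none of them past the test. Nr1d1 differed by -0.53 ± 0.18 (unadjusted p = 0.0147, limma adjusted p = 0.989, n = 2 against 3), and 0.0301% of all genes had a change as low or lower. Nr1d2 differed by -0.36 ± 0.11 (unadjusted p = 0.00877, limma adjusted p = 0.989, n = 2 against 3). Arntl differed by 0.21 ± 0.09 (unadjusted p = 0.0377, limma adjusted p = 0.989, n = 2 against 3). For each of these 3 genes the 12 h arrays lay beyond all untreated arrays. By limma 0 of 10 clock genes and 0% of all genes were called at 12 h, and 3 clock genes and 3.72% of all genes had an unadjusted p under 0.05. Dbp, a target of the same dimer as Nr1d1, differed by -0.15 ± 0.17 with overlapping arrays.

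Nr1d1 and Arntl differed the other way between 12 and 24 h, a step that uses the same 12 h arrays. Nr1d1 was higher by 0.51 ± 0.18 at 24 h than at 12 h (unadjusted p = 0.0188, limma adjusted p = 1, n = 3 against 2), and all 24 h arrays lay above both 12 h arrays. Arntl was lower by 0.26 on the log2 scale (-0.26 ± 0.09, unadjusted p = 0.0147, limma adjusted p = 1, n = 3 against 2), again with no overlap. No clock gene and 0% of all genes passed in this step, and 2 clock genes and 2.01% of all genes had an unadjusted p under 0.05.

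At 24 h against untreated cells all 10 clock genes had overlapping arrays, and their changes lay between -0.16 and 0.12. By limma 0 of 10 passed, with 0% of all genes called, and 0 had an unadjusted p under 0.05, where 7.92% of all genes did. At 48 h the changes lay between -0.16 and 0.42, 0 of 10 passed by limma and 1, Cry2, had an unadjusted p under 0.05, as did 19.8% of all genes. At that time 5.82% of all genes were called, 2.65% higher and 3.17% lower. Without the 3 arrays that deviated together, or without either 12 h array, Cry2 was called. Between 24 and 48 h 0 of 10 clock genes were called by limma and 0 had an unadjusted p under 0.05, where 11.6% of all genes did. In that step 1.67% of all genes were called, 0.527% higher and 1.14% lower. At 48 h 13 of 14 proliferation genes (helicase subunits, cyclin A2, mitotic kinases and the like) fell, with a median change of -0.85. Without 48 h replicate 1, or without 48 h replicate 2, 6 of these 14 were called.

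Ordered by group mean, Nr1d1 and Dbp were both lowest at 12 h, then 24 h, untreated, 48 h and 96 h. Nr1d2 was lowest at 12 h, then 48 h, 24 h, untreated and 96 h. In all 3 orders the 96 h mean was separated by a test from that of untreated cells and of 48 h, and no earlier pair of consecutive times passed. Over the 5 groups together, limma's F test called Nr1d1 (adjusted p = 0.000323), Dbp (0.000403), Nr1d2 (0.000872) and Per3 (0.043), 4 of 10 clock genes where it called 17% of all genes. Cry2 was not called by it (adjusted p = 0.16).

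The promoters of the 4 genes that this F test called are shown because the factors of the loop act through short words in such regions. RefSeq windows of build GRCm38.p6, from 250 bases before to 50 after a start of transcription, matched 9 of the 10 clock genes (13 windows). Capitals mark words found on either strand: the E-box CACGTG, the E′-box CACGTT, the D-box TTATGNAA and the ROR element half-site AGGTCA. Each window reads 5′ to 3′ along the gene. The windows are chr11:98775328-98775627 (minus strand) for Nr1d1, chr14:18239057-18239356 (minus) for Nr1d2, chr7:45704997-45705296 (plus) for Dbp and chr4:151044616-151044915 (minus) for Per3.
Nr1d1: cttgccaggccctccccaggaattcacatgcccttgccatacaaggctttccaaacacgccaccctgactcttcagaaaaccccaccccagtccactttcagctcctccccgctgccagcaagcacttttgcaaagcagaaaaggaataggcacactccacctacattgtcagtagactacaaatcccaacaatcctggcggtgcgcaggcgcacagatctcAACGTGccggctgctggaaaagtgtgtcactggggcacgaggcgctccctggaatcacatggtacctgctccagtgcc
Nr1d2: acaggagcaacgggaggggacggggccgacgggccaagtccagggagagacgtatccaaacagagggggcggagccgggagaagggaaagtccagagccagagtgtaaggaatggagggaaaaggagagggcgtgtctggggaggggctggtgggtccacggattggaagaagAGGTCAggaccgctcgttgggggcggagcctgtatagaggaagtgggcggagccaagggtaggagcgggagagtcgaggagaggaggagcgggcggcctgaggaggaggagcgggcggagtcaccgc
Dbp: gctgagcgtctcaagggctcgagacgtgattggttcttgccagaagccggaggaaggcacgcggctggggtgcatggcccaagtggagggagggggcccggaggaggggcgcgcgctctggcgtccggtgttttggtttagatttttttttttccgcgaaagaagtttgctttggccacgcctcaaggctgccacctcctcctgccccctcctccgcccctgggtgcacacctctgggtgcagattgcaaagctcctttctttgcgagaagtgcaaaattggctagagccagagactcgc
Per3: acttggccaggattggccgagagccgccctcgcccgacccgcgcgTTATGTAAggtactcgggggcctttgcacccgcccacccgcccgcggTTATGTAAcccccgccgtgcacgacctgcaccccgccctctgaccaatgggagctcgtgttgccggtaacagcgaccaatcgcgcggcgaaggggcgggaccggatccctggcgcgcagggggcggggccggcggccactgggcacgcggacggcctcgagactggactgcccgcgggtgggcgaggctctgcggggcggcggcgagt

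The Per3 window holds a pair of identical D-box words, starting at positions -205 and -158 from the start of transcription. D-box words are bound by DBP and its relatives, and 3.38% of all 32851 promoter windows held at least 1. The Nr1d1 window holds 1 E′-box word at -28, where 4.68% of windows held one, and the Nr1d2 window 1 ROR half-site at -77, where 16.3% did. The Dbp window holds none of these words. Of the clock genes with other values, Cry1 (not called) holds both an E-box and an E′-box word, and Per1 (just outside the threshold) holds an E-box, a D-box and a ROR half-site in 1 of its 2 windows. Arntl and Clock (not called) each hold a ROR half-site, at 32 and -119 from a start of transcription. The E-box word was found in 7.15% of all windows. Cry2 holds an E′-box word, and none of the 13 windows holds the cAMP response element TGACGTCA, which 1.79% of windows held. The words thus occur in windows of genes that rose and of genes that were not called, and a match is no evidence of binding.

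**Figure D4:**
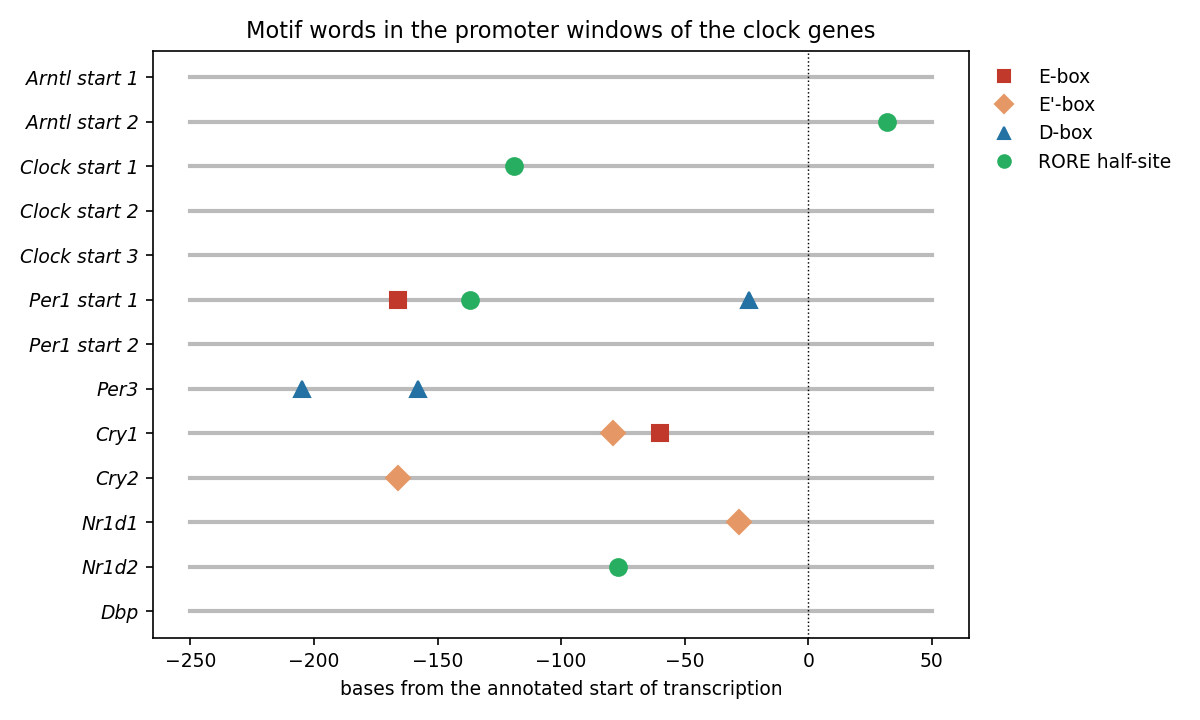
Positions of the E-box, E′-box, D-box and ROR half-site words (symbols) in the 13 promoter windows of 9 clock genes, against the distance in bases from the annotated start of transcription (dotted line at 0). The 2 D-box words of Per3 lie at -205 and -158, and the Dbp window shows no symbol.

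Other genes of the clock, 27 of a list of 30 measured, moved in both directions at 96 h: 7 rose and 8 fell, where 11.8% and 10.1% of all genes did. Bhlhe41 (DEC2), a repressor that competes for E-boxes, had 7.91 and 7.57 at 96 h, against 5.70, 5.24 and 5.72 in untreated cells. It rose by 2.19 ± 0.17 (4.55-fold, limma adjusted p = 2.08e-05, n = 2 against 3), a larger estimate than that of any of the 10 core genes. Its relative Bhlhe40 (DEC1) rose by 0.58 ± 0.18 (limma adjusted p = 0.0423, n = 2 against 3). Tef, of the same PAR family as Dbp, had 7.15 and 7.21 at 96 h, against 6.78, 6.72 and 6.60 in untreated cells, and rose by 0.48 ± 0.12 (limma adjusted p = 0.02, n = 2 against 3).

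The third PAR member, Hlf, changed by 0.05 ± 0.06, at mean levels of 3.77 in untreated cells and 3.82 at 96 h. Those levels lay under the median of 3.84 of the leukocyte markers in untreated cells, so a change in Hlf could be missed. Nfil3, the repressor that binds the same D-boxes, changed by -0.14 ± 0.21. Neither gene passed the test. Rora, an activator at ROR elements, rose by 0.24 ± 0.07 (limma adjusted p = 0.0437, n = 2 against 3) at a signal of 4.165 and 4.145 at 96 h, where the leukocyte markers of untreated cells had a median of 3.84. Id2, an inhibitor of helix-loop-helix factors, rose by 0.50 ± 0.14. Arntl2, the paralog of Arntl, changed by -0.04 ± 0.07 and was not called. Its mean levels, 3.82 in untreated cells and 3.78 at 96 h, also lay under that leukocyte median. Without 96 h replicate 1 the risen genes of this list were Bhlhe41 and Gsk3b, and without 96 h replicate 2, untreated replicate 1 or untreated replicate 2 they numbered 4. The calls of Bhlhe40, Rora and Id2 were lost without untreated replicate 1, untreated replicate 2 or 96 h replicate 1, and that of Tef without untreated replicate 3 or either 96 h array. Bhlhe40 kept its call in 12 of 22 settings and Rora in 12 of 21.

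Among the kinases that mark PER proteins for degradation, Csnk1d fell by 0.34 ± 0.05 (limma adjusted p = 0.00152, n = 2 against 3), Csnk1a1 rose by 0.34 ± 0.07 (0.00586), and Csnk1e was not called. Gsk3b, a kinase that phosphorylates several clock proteins, rose by 0.94 ± 0.11 (1.92-fold, limma adjusted p = 0.000239, n = 2 against 3). The largest falls in the list were those of Timeless (-2.79 ± 0.10, limma adjusted p = 1.37e-07, n = 2 against 3) and Tipin (-1.71 ± 0.22, 0.00041), which in mammals protect the replication fork. Wee1, a clock output that is also a mitotic brake, fell by 0.70 ± 0.07. Nono, a PER-binding RNA-binding protein, fell by 0.48 ± 0.06, and Nampt, the enzyme that feeds NAD to SIRT1, fell by 0.54 ± 0.11. Ddb1, a ubiquitin ligase subunit, fell by 0.35 ± 0.06 and the deubiquitinase gene Usp2 by 0.47 ± 0.12. The Usp2 call was lost without either untreated replicate 1 or 2 or either 96 h array, and that of Nampt without 96 h replicate 1. Timeless, Nono and Wee1 were already lower at 48 h (-1.05, -0.31 and -0.33), the only 3 of the list called then. Of 22 alternative settings, the 48 h call was kept in 22 for Timeless, 16 for Nono and 11 for Wee1. Without untreated replicate 2 or without 48 h replicate 1, Timeless alone was called.

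**Figure D5:**
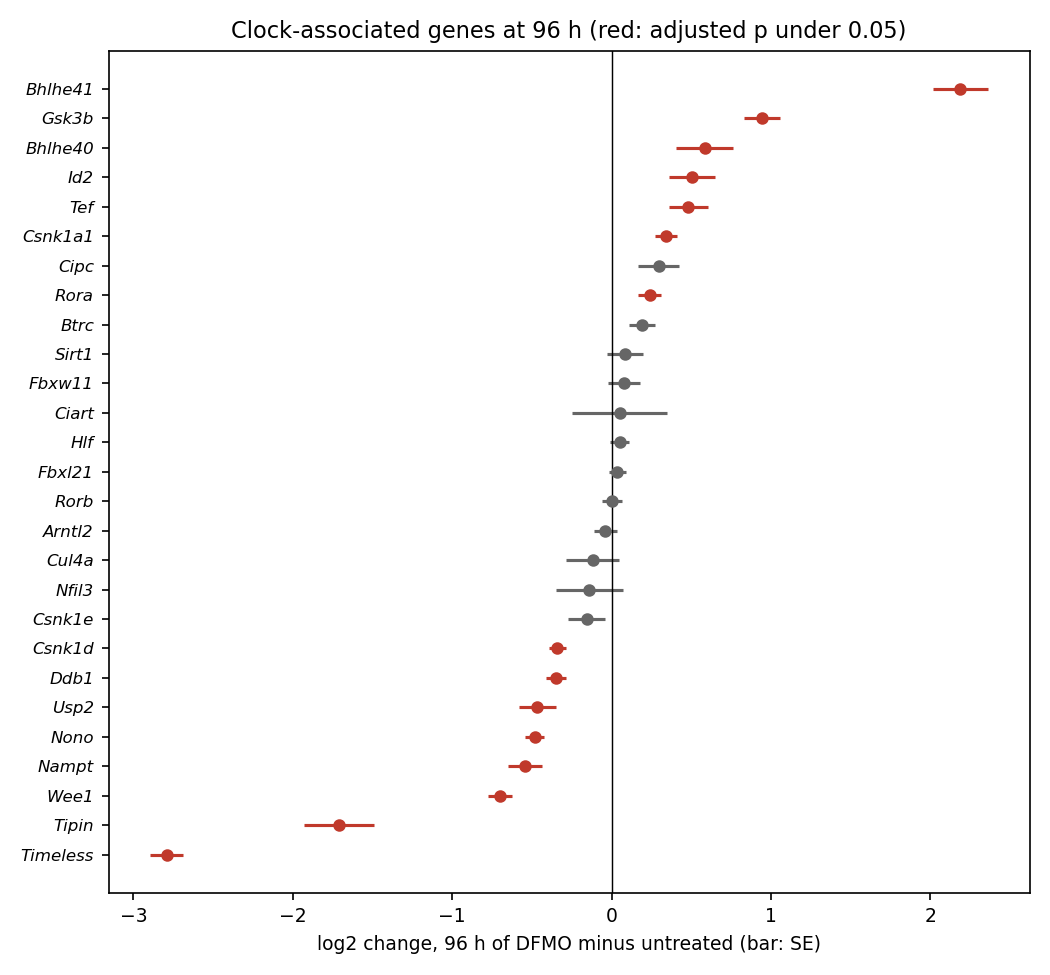
Log2 change at 96 h against untreated cells (horizontal axis, point with SE) of the 27 measured clock-associated genes, in order of the change. Red marks genes past the adjusted threshold, 7 to the right of 0 with Bhlhe41 at 2.19, and 8 to the left with Timeless at -2.79.

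Genes of signals that induce Per1 and Per2 (14 glucocorticoid and cAMP response genes, Per1 among them) moved both ways at 96 h, with 3 higher and 2 lower, where 11.8% of all genes were higher and 10.1% lower. Tsc22d3 (GILZ) rose by 1.11 ± 0.10 and Fkbp5, another glucocorticoid target, fell by 1.93 ± 0.14 (limma adjusted p = 4.82e-05 and 1.11e-05, n = 2 against 3). Sik1, a cAMP-induced kinase, rose by 0.59 ± 0.13, Creb1 rose by 0.39 ± 0.08, and Nr4a2, an early response receptor gene, fell by 0.61 ± 0.13. Without 96 h replicate 1, Tsc22d3 alone was called higher, and without 96 h replicate 2, Fkbp5 alone was called lower. Tsc22d3 was the only member called at 48 h (0.76 ± 0.10, limma adjusted p = 0.00329, n = 2 against 3).

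The marker counts are to be read against the 11.8% of all genes called higher and the 10.1% called lower at 96 h. All 14 measured proliferation genes fell at 96 h, with changes between -4.78 and -2.56 and a median of -3.20. Their summed log2 level was 82.6 to 83.3 at 96 h, against 131 to 134 in untreated cells. Of the fibroblast markers 6 of 10 fell and 1 rose, with Thy1, a surface glycoprotein, at -2.35 ± 0.11 and Fn1, fibronectin, at 0.71 ± 0.12. Fallen markers numbered 1 without 96 h replicate 2 and 3 without 96 h replicate 1, untreated replicate 1 or untreated replicate 2. Their summed level was 91.8 to 92.8 at 96 h, against 95.8 to 96.3 in untreated cells. Of 9 leukocyte markers 1 rose (Lyz2, lysozyme, by 1.90 ± 0.30), with a summed level of 36.0 to 36.7 at 96 h, against 34.6 to 34.9 in untreated cells. Of 10 epithelial and endothelial markers 2 rose (Cdh1 by 0.58 ± 0.07 and Tek by 0.34 ± 0.06). Tek stood at 3.69 and 3.72 at 96 h, still under the median of 3.84 of the leukocyte markers in untreated cells. The summed level of the 10 was 35.7 to 36.3 at 96 h, against 35.0 to 35.5 in untreated cells. Of 9 adipocyte markers none was called by limma, and 1 had an unadjusted p under 0.05, as did 30% of all genes. The part of these shifts in the values of the clock genes was not tested.

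The genes outside the 10 clock genes whose levels followed the called clock genes most closely over the 12 arrays are given as a description. Clock genes were left out of this ranking. Among them, Nr1d1 and Nr1d2 had an r of 0.960, Nr1d1 and Dbp 0.938, and Nr1d2 and Dbp 0.939. The arrays share their normalisation, and the 96 h pair stands apart. For Dbp these were 9930104L06Rik (Pearson r = 0.981), Epha4 (0.981), an ephrin receptor, and Negr1 (0.977), a neuronal adhesion protein. Over the 10 arrays without the 96 h pair their r values were 0.694, 0.913 and 0.794. For Nr1d1 they were Arih2 (0.955), Armc7 (0.953) and Slc35e2 (0.953), with 0.778, 0.558 and 0.712 over the 10 arrays. For Nr1d2 they were Snai3 (0.960), Coa4 (0.944) and Supt5 (0.941), with 0.718, 0.631 and 0.741. For Per3 they were Rb1 (0.960), the retinoblastoma gene, Tcf4 (0.952) and A930024E05Rik (0.946), with 0.839, 0.793 and 0.785. For Cry2 they were Naxd (0.961), Man2a1 (0.937) and Pdpr (0.937), with 0.938, 0.916 and 0.926.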

How the data were processed

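RNA of sorted G1 cells was hybridised to 12 arrays, a number that limits precision. Log2 values per transcript cluster were deposited by the authors in 1 table. RMA (background correction, quantile normalisation and probe summary) and Partek are listed, unversioned, per the submitters' processing notes. No source used here names the genome build of the probes. Quantile normalisation forces 1 distribution on all arrays, so a shift of all genes would be hidden.

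Of 35399 clusters, 21789 had 1 symbol in the platform annotation, 1621 several and 11989 none. Symbols were looked up by Entrez identifier in RefSeq (GRCm38.p6, 21698 found), and the cluster with the highest mean stood for a gene, which gave 19938 genes. Each clock gene had 1 cluster. Group means were fitted together over all 12 arrays with limma 3.58.1 (R 4.3.3), and p-values are two-sided. Python 3.11.15 and matplotlib 3.10.9 drew the figures and scanned promoters. The fit was also run on simulated data with noise independent between arrays, so arrays that deviate together were not covered. Arrays of a group are biological replicates per the labels.

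All 10 clock genes are named, with the clock-associated genes called at any time or related to them and called members of the input list. For each called clock gene, the 3 most correlated genes outside the 10 are named too. Fibroblast, leukocyte, epithelial and endothelial, adipocyte and proliferation lists were counted. Members and lists were chosen with earlier results of these data known. Fap, Thy1, Fn1, Lyz2, Cdh1, Tek, Csnk1e and Thra were picked after their values were seen.

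Whether equal replicate numbers pair arrays was checked from deviations from group means. Untreated and 24 h arrays of the same number gave r of 0.153, 0.287 and 0.581 over genes, each above 0.1. Of their pairs of unlike number, untreated replicate 1 with 24 h replicate 2 gave 0.235. Untreated replicate 2 with 24 h replicate 1 gave 0.126, and the other such pairs were negative. Between those groups 0 genes were called with or without the block, so the calls there cannot show whether the arrays are paired. Untreated and 96 h arrays of the same number gave -0.136 and -0.0798, and untreated and 12 h arrays 0.189 and -0.255. Arrays of the same number at 24 and 48 h gave 0.35 and 0.419, and replicates 1 and 2 of unlike number -0.35 and -0.419. The 2 arrays of a group deviate by equal and opposite amounts, so those signs mirror each other. Same-number arrays of the remaining pairs of groups gave r between -0.149 and 0.157.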

Additional observations from a re-analysis of the deposited data

Results flagged for a closer look

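For 3 clock genes the change at 96 h differed from that at 48 h by a test of the difference itself, the limma comparison of both times. Nr1d1 was higher at 96 h than at 48 h by 1.56 ± 0.20 (SE, limma adjusted p = 0.00122, n = 2 each). Dbp was higher by 1.56 ± 0.18 (limma adjusted p = 0.000847) and Nr1d2 by 0.93 ± 0.12 (limma adjusted p = 0.00127). Both 96 h arrays lay above both 48 h arrays in all 3. No group held the 4 arrays needed to look for single outlying arrays.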

How the results depend on the processing

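Groups held 2 or 3 arrays. Across 22 alternative settings the 96 h rises of Nr1d1, Dbp and Nr1d2 and their steps from 48 h kept their direction and their calls, with 96 h changes of 1.52 to 1.89, 1.53 to 1.86 and 0.68 to 0.86. Per3 kept its call in 21 and Cry2 in 10. The clock genes higher at 96 h numbered 5, and 3 to 6 with 1 array left out (3 without 96 h replicate 2). At 48 h 0 were higher, 1 (Cry2) with only the groups compared in the fit, 1 without the 3 arrays that deviated together (chosen after seeing the data), and 0 to 1 with 1 array left out. Clock-associated genes higher at 96 h numbered 7, 4 with all clusters tested, and 2 to 7 with 1 array left out, and those lower 8, and 6 to 8. At 48 h 0 of them were higher, 1 with centred arrays, 1 with array weights, 1 with only the groups compared, and 0 to 1 with 1 array left out, and 3 were lower, 1 with genes above the median level, 1 with a trend in the prior, 1 without the 3 arrays, and 1 to 4 with 1 array left out. With the replicate number as a block, 6 clock genes were higher at 96 h, with Arntl (0.30) and Per1 (0.59) gained and Cry2 lost, and at 48 h 2 clock-associated genes were higher. The F test could not be run on only the groups compared. The input genes higher at 96 h numbered 3, and 5 under the level filter, the trend or the block; fibroblast markers higher numbered 1, and 3 with only the groups compared. Of 1364 values of clock genes not called, 89 changed sign and 24 became called. The causes were not tested.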
